A study of Mus musculus with 6 samples.

Results

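The phagocyte NADPH oxidase is the enzyme with which neutrophils and macrophages turn oxygen into superoxide. The genes described here encode 5 of its parts. They are Cybb and Cyba, which form the membrane core, Ncf1 and Ncf4, which belong to the cytosolic complex, and Rac2, the small GTPase that the complex needs. They were found as the non-control probes whose accession in the scanner files is a RefSeq transcript of 1 of these genes. This gave 6 of 55681 probes, for 5 of the 37163 gene names on the array. Cyba had 2 probes and each other gene had 1. All 5 genes were well above background on all 6 arrays, a call the scanner software makes for each spot, and all 5 entered the test across genes.

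Sorted bone marrow cells of C57BL/6 mice were compared at 2 ages, 3 months (young, 3 samples) and 24 months (old, 3 samples). The labels give no treatment and no altered allele for either group. Total RNA of each sample was labelled with Cy3 and read on 1 Agilent array. The labels call the cells mesenchymal stem cells and do not name the markers of the sort, and they do not tell whether the 3 samples of an age are different animals or pools. The p-values therefore cover the spread among these samples only, which may be technical.

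In a resting phagocyte the oxidase is held apart. The flavocytochrome, made of the Cybb product gp91phox (also called Nox2) and the Cyba product p22phox, sits in the membranes of granules and at the cell surface, while cytosolic proteins, among them the products of Ncf1 (p47phox) and Ncf4 (p40phox), wait apart from it. After a receptor signals, p47phox is phosphorylated, the cytosolic proteins move to the membrane together with Rac bound to GTP, and electrons pass from NADPH to oxygen. Loss of Cybb, Cyba, Ncf1 or Ncf4 causes chronic granulomatous disease, in which phagocytes kill some microbes poorly. In bone marrow these genes are turned on as granulocytes and monocytes mature, and mesenchymal stromal cells are not known as a main site of their use.

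The promoters of 3 of the 5 genes were in the RefSeq promoter table of build GRCm38.p6 and are shown as the sequence just upstream of these members. Each line gives the 180 bases just upstream of the gene start, 5′ to 3′ in the direction of transcription. Capitals mark GAAANNGAAA on either strand, a pair of the short repeats to which interferon regulatory factors such as Irf8 bind.
Cybb, chrX:9469325-9469504, minus strand: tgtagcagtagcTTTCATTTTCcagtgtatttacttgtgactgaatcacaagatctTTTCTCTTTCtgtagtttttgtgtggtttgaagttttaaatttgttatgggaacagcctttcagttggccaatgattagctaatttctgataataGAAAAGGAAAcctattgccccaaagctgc
Ncf1, chr5:134229626-134229805, minus strand: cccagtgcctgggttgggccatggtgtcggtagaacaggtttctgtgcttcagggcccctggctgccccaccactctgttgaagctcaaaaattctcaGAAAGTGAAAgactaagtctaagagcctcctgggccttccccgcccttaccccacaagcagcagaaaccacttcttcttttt
Cyba, chr8:122432941-122433120, minus strand: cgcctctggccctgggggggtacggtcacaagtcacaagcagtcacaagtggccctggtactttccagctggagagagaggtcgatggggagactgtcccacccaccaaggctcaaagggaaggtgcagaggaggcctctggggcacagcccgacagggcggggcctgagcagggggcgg
The Cybb window holds 3 of these matches, which begin 168, 124 and 29 bases before the gene start. The Ncf1 window holds 1, which begins 82 bases before it. The Cyba window holds none. Over all 32851 promoters of the table, 2.98% have at least 1 match in the 250 bases before the start. The core of Ets factors such as PU.1, GGAA on either strand, occurs 3 times in the 250 bases of Cybb, where 2 of the 3 overlap the capitals, 2 times in those of Cyba and 1 time in those of Ncf1. That core is in 93.4% of all promoters. The longer PU.1 core GAGGAA (in 23.3% of promoters), the composite GGAANNGAAA (2.30%) and the C/EBP motif TTGCNNAA (9.56%) have no match in these 3 windows. Whether the motifs bear on the differences below was not tested. A match of letters describes the sequence and is not a measured binding site.

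The 6 arrays were of the same print and had 53.4% or fewer of their probes well above background in the old samples against 55.3% or more in the young ones. The 3 young arrays lay in row 1 of the slide and the 3 old arrays in row 2, so slide row and age cannot be told apart. All values below are log2 signals relative to the 75th percentile of the probes of the same array, so a value of 1 stands for a signal 2-fold above that percentile. Because probes differ in how they bind, the level of 1 gene is not set against that of another. No array had the stromal markers Pdgfra, Pdgfrb, Prrx1, Twist1, Foxc1 or Grem1 well above background, whereas Ptprc, the gene of the leukocyte surface protein CD45, was well above it on all 6. Of the 20 listed stromal markers, 8 were well above background on all 6 arrays, namely Lepr, Cxcl12, Eng, Thy1, Cd44, Ly6a, Col1a2 and Cspg4, and some of these, such as Cd44 and Ly6a, are also made by blood cells.

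All 5 oxidase genes had lower signals in the old samples, as 39.8% of tested genes did, and Cybb and Ncf4 passed the test. The limma adjusted p, taken over all 23266 tested genes, had to be under 0.05. By this rule 2 of 5 members fell and 0 rose, against 4.04% of all tested genes that fell and 3.98% that rose. Among the tested genes that, like the members, were well above background on all 6 arrays, 3.06% fell. The drop was about 3-fold for Cybb and Ncf4, and the differences of Cyba, Ncf1 and Rac2 did not pass. The median log2 fold change of the 5 members was -1.39, beside 0.07 over all tested genes. In each of the 5 genes every young sample lay above every old one, a pattern that 13.1% of tested genes share. A fitted mean at least 2-fold below that of the young samples, whatever its p, was seen in Cybb, Ncf1 and Ncf4 and in 4.88% of tested genes.

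**Figure D1:**
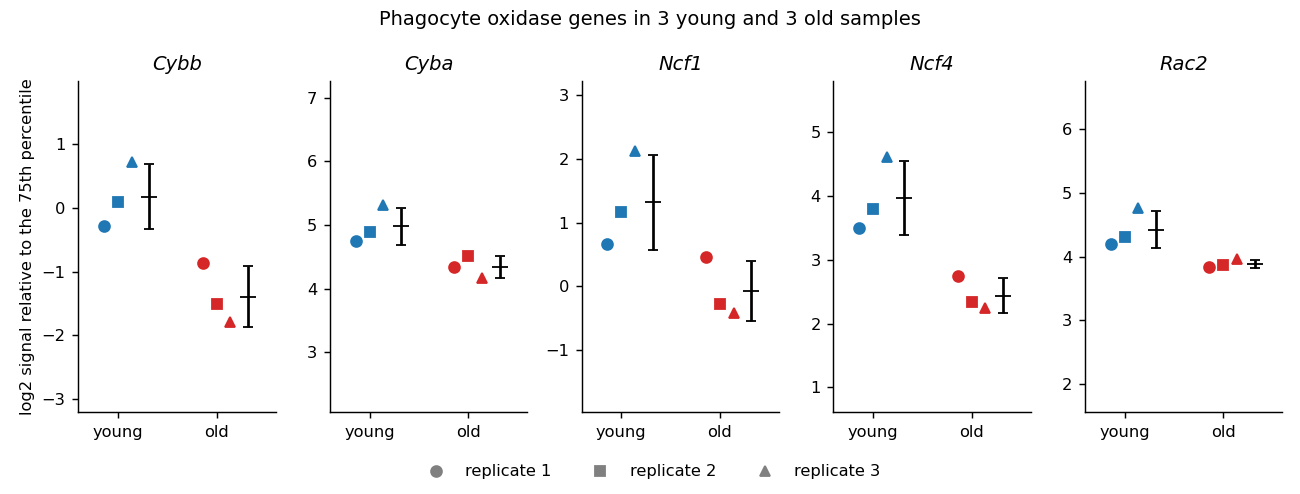
Log2 signal (y axis, 0 at the 75th percentile of the array) of Cybb, Cyba, Ncf1, Ncf4 and Rac2 in each young and old sample. Symbols mark the replicate number and bars the mean ± SD of 3 samples. All panels span the same range, and in each the 3 young samples lie above the 3 old ones.

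Cybb encodes gp91phox, the subunit that carries the electrons across the membrane and without which p22phox has no partner in the phagocyte. Its signal was -0.28, 0.09 and 0.72 in young samples 1 to 3 and -0.86, -1.52 and -1.80 in old samples 1 to 3. Young sample 3 was the highest and old sample 3 the lowest, and the groups were 0.58 apart at their closest. The means were 0.18 ± 0.51 (SD, n = 3) in the young and -1.39 ± 0.48 (SD, n = 3) in the old group. Cybb fell by 1.57 on the log2 scale (SE 0.33, 95% interval -2.37 to -0.76), which is 2.96-fold lower in the old samples (limma adjusted p = 0.0443). Of all tested genes, 2.54% had a lower fold change. The call of Cybb held without old sample 1 (adjusted p = 0.0461). It was lost without young sample 1, 2 or 3 (adjusted p = 0.0575, 0.118 and 0.0947) and without old sample 2 or 3 (0.124 and 0.125). The fold change itself stayed between -1.83 and -1.29 in these fits.

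Cyba encodes p22phox, which stabilises gp91phox and gives p47phox its docking site at the membrane. It serves other Nox enzymes too, so it is made in many more cell types than Cybb. The brighter of its probes read 4.75, 4.88 and 5.31 in the young and 4.33, 4.52 and 4.17 in the old samples. The 2 groups were 0.23 apart, young sample 3 was again the highest and old sample 3 the lowest. The difference was -0.64 (SE 0.17, 95% interval -1.06 to -0.22) and did not pass the test (limma adjusted p = 0.0770). The second Cyba probe read 1.63, 2.05 and 2.50 in the young and 1.13, 1.52 and 1.1 in the old samples. Its difference was -0.81 (SE 0.24, limma adjusted p = 0.0962 over all probes), so both probes of Cyba pointed the same way and neither passed.

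Ncf1 encodes p47phox, the organiser whose phosphorylation starts assembly. Its signal was 0.66, 1.17 and 2.13 in the young and 0.47, -0.28 and -0.41 in the old samples. The young samples were spread over 1.47 on the log2 scale, the widest of the 5 genes, and the lowest of them lay only 0.19 above old sample 1. The means were 1.32 ± 0.75 (SD, n = 3) and -0.07 ± 0.47 (SD, n = 3). The difference of -1.39 (SE 0.42, 95% interval -2.41 to -0.38) was nearly as large as that of Cybb but did not pass (limma adjusted p = 0.0963).

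Ncf4 encodes p40phox, which binds a lipid of the phagosome membrane and sustains the activity of the complex there. Its signal was 3.50, 3.81 and 4.62 in the young and 2.75, 2.34 and 2.24 in the old samples. The gap between the groups, 0.75, was the widest of the 5 genes. The means were 3.97 ± 0.58 (SD, n = 3) and 2.44 ± 0.27 (SD, n = 3). Ncf4 fell by 1.53 (SE 0.30, 95% interval -2.27 to -0.79), which is 2.89-fold lower in the old samples (limma adjusted p = 0.0390). The call of Ncf4 held without young sample 1 (adjusted p = 0.0496). It was lost without young sample 2 or 3 (0.101 and 0.0570) and without old sample 1, 2 or 3 (0.0583, 0.112 and 0.119), with fold changes from -1.77 to -1.21.

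Rac2 encodes the Rac GTPase restricted to blood cells, which is the main Rac of the neutrophil oxidase. Its probe is printed 10 times on the array, so its values carry little spot noise. They were 4.21, 4.31 and 4.76 in the young and 3.84, 3.87 and 3.96 in the old samples, each with an SD over spots of 0.05 to 0.09. The old samples lay within 0.12 of each other, and old sample 1 was the lowest here rather than old sample 3. Rac2 differed by -0.53 (SE 0.16, 95% interval -0.91 to -0.15), the smallest difference of the 5 genes, and did not pass (limma adjusted p = 0.0930). Of all tested genes, 8.35% had a lower fold change than Rac2 and 7.22% a lower one than Cyba.

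All 5 genes had a limma p under 0.05 before adjustment, with a negative sign, as did 10.9% of all tested genes. Young sample 3 had the highest and young sample 1 the lowest young value for each of the 5 genes. Without young sample 3, 0 of 5 members passed and 321 of 23266 genes did, against 1864 (8.01%) with all samples. Without young sample 3 the differences were between -1.29 and -0.37 over the 5 genes. In bulk RNA, fewer phagocytes among the cells and less oxidase RNA per phagocyte cannot be told apart.

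**Figure D2:**
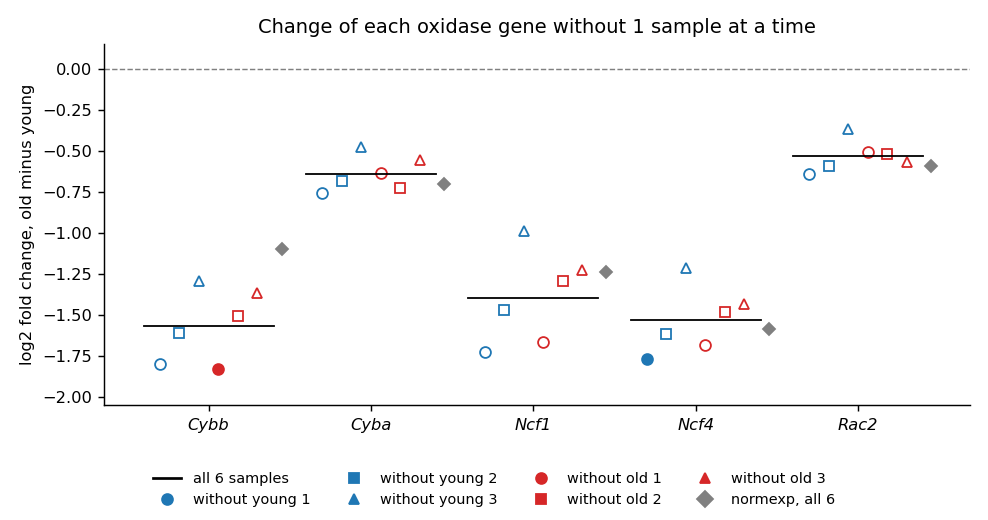
Log2 fold change, old minus young (y axis), of each of the 5 genes with all 6 samples (line), without 1 sample at a time (symbols) and with the normexp background correction (diamond). Filled symbols and filled diamonds mark a limma adjusted p under 0.05 in that fit. All points lie below 0, and the diamonds of all 5 genes are filled. Among the fits without 1 sample, those without young sample 3 are the nearest to 0. Of these fits only Cybb without old sample 1 and Ncf4 without young sample 1 are filled.

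The fold changes of the 5 genes were unequal in size, with Cybb, Ncf1 and Ncf4 between -1.57 and -1.39 and Cyba and Rac2 between -0.64 and -0.53. This was tested within arrays, as the log2 difference of a pair of genes in each sample, with a two-sided exact permutation test over the samples. There were 10 pairs, and with 3 samples against 3 the smallest possible p is 0.1. Ncf4 minus Rac2 was -0.71, -0.50 and -0.14 in the young and -1.10, -1.53 and -1.73 in the old samples, with every old sample below every young one. The change of Ncf4 minus that of Rac2 was -1.0. The groups also did not overlap for Cybb against Rac2 (-1.03), Cybb against Cyba (-0.93) and Cyba against Ncf4 (0.89). Each of these 4 pairs had an exact permutation p = 0.1, or 0.25 adjusted over the 10 pairs. Ncf1 against Rac2 (-0.86) and Cyba against Ncf1 (0.76) were of like size, but their groups overlapped (exact permutation p = 0.2, adjusted 0.333).

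Within each of these sets the groups overlapped. Cyba minus Rac2 was 0.54, 0.58 and 0.55 in the young samples, an SD of 0.019, and 0.49, 0.65 and 0.21 in the old ones. The change of Cyba minus that of Rac2 was -0.11 (exact permutation p = 0.7, adjusted 0.778). Cybb and Ncf4 differed in their change by -0.03 (p = 0.9 in the exact test, adjusted 0.9), Cybb and Ncf1 by -0.17 (adjusted 0.571) and Ncf1 and Ncf4 by 0.14 (adjusted 0.625). With the normexp correction, which alters dim signals most, the change of Cybb shrank to -1.10 while that of Ncf4 was -1.59. Cybb minus Cyba was then -0.39 with overlapping groups, and Cybb minus Ncf4 turned to 0.49 and Ncf1 minus Ncf4 was 0.35, both without overlap (exact permutation p = 0.1).

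**Figure D3:**
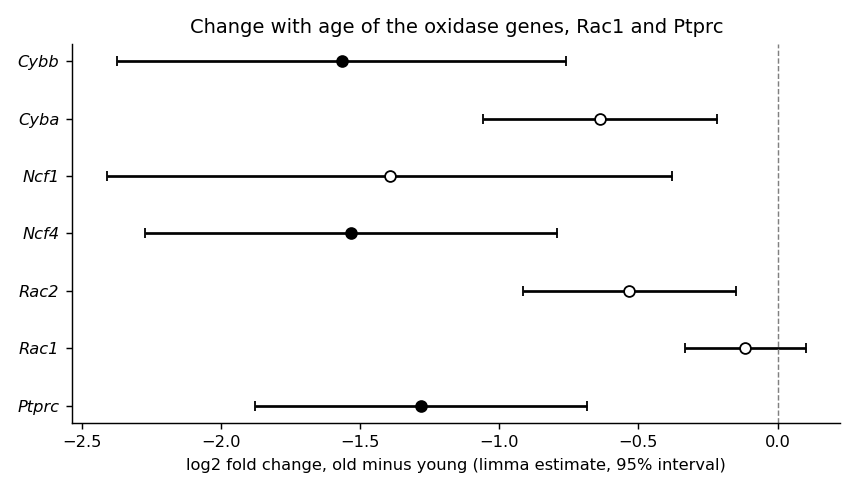
Log2 fold change, old minus young, with its 95% limma interval (x axis), for the 5 oxidase genes, Rac1 and Ptprc. Filled points passed the test across all genes. The intervals of the 5 members lie below 0, and that of Rac1 spans 0.

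Other parts of the oxidases and their helpers were read from the same fit. Rac1, the Rac of most other cells and of macrophages, was at 5.18, 5.18 and 5.33 in the young and 5.11, 5.19 and 5.04 in the old samples. The Rac1 groups overlapped and the difference was -0.12 (SE 0.09, 95% interval -0.33 to 0.10, limma adjusted p = 0.440). Cybc1, the chaperone of the flavocytochrome, differed by -0.05 and Rap1a, a GTPase that copurifies with it, by -0.04. Nox1, the enzyme of colon epithelium, was 0.57 higher in the old samples (SE 0.15, limma adjusted p = 0.0707), with no overlap. For Nox3, Duox1 and Duoxa2 no array was well above background. Noxo1, the organiser that serves Nox1, differed by 0.16 (SE 0.14, limma adjusted p = 0.510). Of the 12 other oxidase components reported here, 10 were on the array and 7 were tested. Of the 7, 0 passed in either direction with limma, and only Nox1 had an unadjusted p under 0.05. With normexp Nox1 was 0.53 higher in the old samples and passed (limma adjusted p = 0.0153).

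Many genes of the signals that switch the oxidase on were lower as well. Of 19 receptors that trigger, prime or restrain the burst, 13 fell and 0 rose, with a median of -1.56. Csf2ra, a chain of the GM-CSF receptor, fell by 1.56 (SE 0.21, limma adjusted p = 0.0235), Tlr2, which senses bacterial lipoproteins, fell by 2.10 (SE 0.31, 0.0260), and Fcgr2b, the inhibitory IgG receptor, fell by 1.73 (SE 0.27, 0.0271). With the normexp correction Tlr2 was at -1.24 and Fcgr2b at -0.76, and both still passed. The formyl peptide receptors Fpr1 and Fpr2, the C5a receptor C5ar1 and the shared Fc receptor chain Fcer1g were among the 13. Of the 19 receptors, 14 were well above background on all 6 arrays. Among the 13, C5ar1 was so on only 1 old array, Tnfrsf1b on 2 and Fcgr1 on 0. With normexp 12 receptors fell. Of the 24 genes reported here that link receptors to assembly, 7 fell and 0 rose, with a median of -0.49 that was -0.26 with normexp. They were the kinases Syk (-1.67, SE 0.25, limma adjusted p = 0.0265), Prkcb (-1.81, SE 0.30, 0.0291), Prkcd (-1.01, SE 0.19, 0.0341), Fgr, Pak1 and Pik3cd and the Rac exchange factor Dock2. Prkcb and Prkcd are protein kinases C that phosphorylate p47phox. Without old sample 2 or old sample 3 no gene of either list passed, when 1 and 5 of all 23266 genes did. Without young sample 3, 3 receptors and 0 genes of the activation list passed.

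The genes on either side of the reaction did not pass in the main setting. The 8 tested genes that supply NADPH through the pentose phosphate pathway and isocitrate had a median of 0.10, and 0 passed with limma, nor was any at an unadjusted p under 0.05. The smallest p among them belonged to Pgls (0.24, SE 0.13, limma adjusted p = 0.275), Pgd (-0.20, SE 0.13, 0.358) and Rpia (0.13, SE 0.08, 0.378). Of 16 genes that handle the oxidants, 0 passed with limma and 5 had an unadjusted p under 0.05, while 3 fell with the normexp correction, Mpo and Epx among them (limma adjusted p = 0.0313 and 0.0395). Their median was 0.03 and turned negative with the normexp, quantile and deposited values (-0.04, -0.11 and -0.10). Gpx4, which reduces lipid peroxides, was 0.27 higher (SE 0.08, limma adjusted p = 0.0973). Mpo, the neutrophil enzyme that makes hypochlorous acid from the peroxide, differed by -1.06 with no overlap (SE 0.32, 0.0991), and its eosinophil counterpart Epx differed by -1.91 (SE 0.61, 0.110). Sod3 was on no array well above background. Whether the lists differ from one another was not tested.

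Transcription factors known to act on oxidase genes were counted in the same way. Of 13 tested, 3 fell, 0 rose, and the median was -0.07. Irf8, the interferon regulatory factor of monocyte and granulocyte precursors, was at 1.77, 1.89 and 2.74 in the young and 0.18, -0.45 and -0.43 in the old samples. Irf8 fell by 2.37 (SE 0.30, limma adjusted p = 0.0224), with the old samples below all young ones. Satb1, a chromatin organiser, fell by 1.80 (SE 0.23, 0.0222, or -1.14 with normexp), and Cebpa, the CCAAT factor of early granulocyte precursors, fell by 1.12 (SE 0.17, 0.0276). With the normexp correction Cebpa differed by -0.31 and no longer passed. Spi1, the gene of PU.1, was named after its value was seen. It differed by -2.01 (SE 0.57, limma adjusted p = 0.0850) and by -0.22 with normexp, and was well above background on only 1 of the 3 old arrays. Hoxa10 was well above background on no array. No factor passed without old sample 2 or 3, and 3 did without young sample 3.

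**Figure D4:**
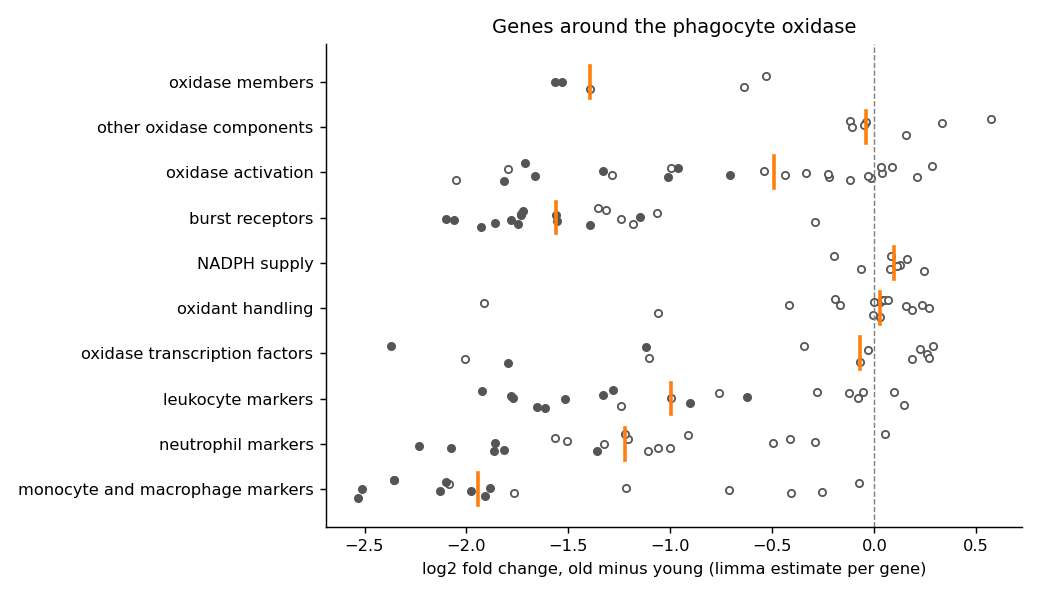
Log2 fold change, old minus young (x axis), of every tested gene of the members and of 9 lists (rows). Filled points passed the limma test across all genes, and orange bars are list medians. The burst receptors and the leukocyte, neutrophil and monocyte and macrophage markers have medians of -1.0 or lower, while the medians of NADPH supply and oxidant handling are 0.10 and 0.03.

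A part of the general leukocyte, neutrophil, and monocyte and macrophage markers was lower in the old samples too. Of 19 general leukocyte markers 10 fell and 0 rose (median -1.0). Of 19 neutrophil markers 6 fell and 0 rose (median -1.22), against 15 that fell with normexp and 8 with the deposited values. Csf3r, the G-CSF receptor of neutrophils, differed by 0.05 and did not pass. Of 16 monocyte and macrophage markers 9 fell and 0 rose (median -1.94, or -1.90 with the 3 genes at their bound, and -0.94 with normexp). The summed linear signal of the leukocyte list, in units of the 75th percentile, was 157 to 266 in the young and 92.6 to 110 in the old samples. That of the neutrophil list was 2098 to 3190 and 1384 to 1734, and that of the monocyte and macrophage list 31.6 to 67.8 and 12.2 to 18.0. The members summed to 59.0 to 97.3 and 39.4 to 43.7. In such sums the brightest probes weigh most. These were S100a9 (difference -0.41) and S100a8 (-0.91) in the neutrophil list, and Cyba and Rac2 among the members. Young sample 3 had the highest value for 16 of 19, 17 of 19 and 15 of 16 of these markers, as it had for the 5 members. It had the highest value for 6 of 15 B cell and 7 of 16 erythroid markers. The share over all tested genes was not counted. All tested leukocyte and neutrophil markers were well above background on all 6 arrays. Cd52, a leukocyte surface peptide, fell by 1.62 (SE 0.27, limma adjusted p = 0.0297), Retnlg, a neutrophil resistin-like protein, fell by 1.82 (SE 0.30, 0.0285), and Mpeg1, a macrophage pore-forming protein, fell by 2.36 (SE 0.29, 0.0220). The part of these cells in the oxidase result was not tested. Without old sample 2 or 3 none of these markers passed, and without young sample 3, 3, 1 and 5 of them did.

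The change of each oxidase gene was also taken relative to these genes on the same array. There were 20 such two-sided exact permutation tests, and the smallest possible p, 0.1, became 0.2 after adjustment. Ptprc fell by 1.28 (SE 0.24, limma adjusted p = 0.0360), from 0.39, 0.43 and 1.23 to -0.40, -0.68 and -0.70. Rac2 relative to Ptprc was 0.75 higher in the old samples and Cyba 0.64 higher, each without overlap (exact permutation p = 0.1, adjusted 0.2), and with normexp these were 0.458 and 0.345. Relative to Ptprc, Cybb differed by -0.29 (adjusted 0.4), Ncf4 by -0.25 (0.308) and Ncf1 by -0.11 (0.9), all with overlapping groups. With normexp Cybb differed by -0.049 and Ncf1 by -0.189, while Ncf4 differed by -0.535 without overlap (exact permutation p = 0.1). Ncf1 relative to Ptprc turned to 0.02 without young sample 3 and to 0.00 without old sample 3.

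Relative to the mean of the neutrophil markers, Cyba (0.59) and Rac2 (0.69) were higher and Ncf4 (-0.31) was lower in the old samples without overlap (exact permutation p = 0.1, adjusted 0.2, for each). Cybb minus that mean was nearly constant in the young samples (SD 0.021) and differed by -0.34 between the ages with no overlap. With the normexp correction it turned to 0.08, again with no overlap. Relative to the monocyte and macrophage mean, whose own change was -1.64, Cyba (1.0) and Rac2 (1.11) were higher without overlap. With normexp they were 0.23, with overlapping groups, and 0.35. The corresponding values of Cybb (0.07), Ncf1 (0.25) and Ncf4 (0.11) had overlapping groups, and all 3 turned negative with normexp (-0.16, -0.30 and -0.65). Relative to the general leukocyte mean, whose change was -0.86, Cybb (-0.71, or -0.33 with normexp) and Ncf4 (-0.67) were lower without overlap. Ncf1 (-0.53), Rac2 (0.33) and Cyba (0.22) overlapped. Dock2 had no value on old sample 1, so the leukocyte mean of that array lacks it. In old samples 2 and 3 Dock2 was dim (-2.50 and -2.54), so its absence raises the mean on old sample 1. The -0.86, the 5 differences and the overlaps all carry this gap. Whether the groups overlap without Dock2 was not tested. Without old sample 1, Cybb was at -0.85, Ncf4 at -0.70, Ncf1 at -0.68 and Cyba at 0.35. Single markers in that mean ran from -1.92 (Cd53) to 0.14 (Rhoh). Was (-0.08) and Inpp5d (-0.06) hardly differed, while Lcp1 (-1.66) and Lsp1 (-1.78) differed more than Cybb or Ncf4. A difference from the mean therefore does not set a member apart from leukocyte genes in general.

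**Figure D5:**
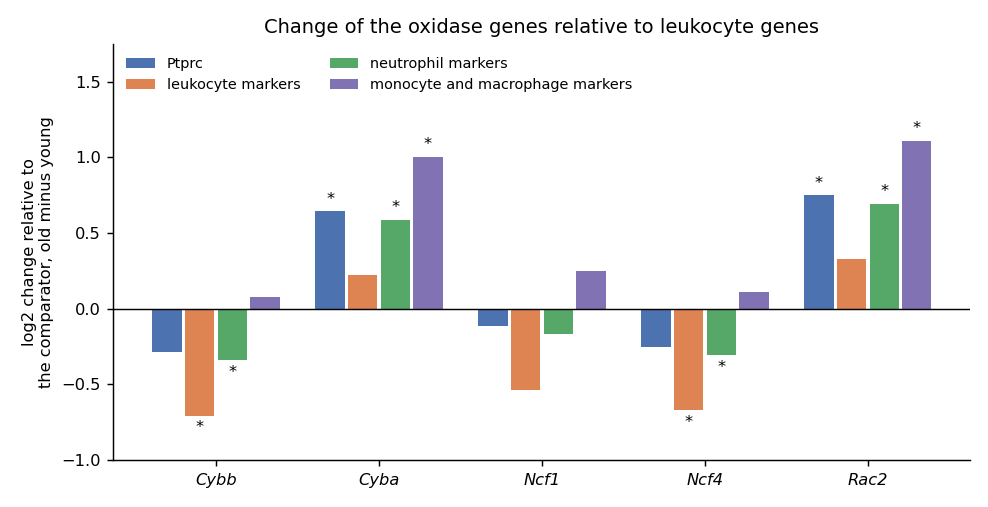
Difference of log2 change, old minus young (y axis), between each oxidase gene and Ptprc or the mean of 19 leukocyte, 19 neutrophil or 16 monocyte and macrophage markers on the same array. On old sample 1 the leukocyte mean lacks Dock2, which had no value there. Asterisks mark differences whose groups do not overlap, which is the smallest exact permutation p that 3 against 3 samples allow (0.1). Bars of Cyba and Rac2 are above 0 for every comparator, and those of Cybb, Ncf1 and Ncf4 lie on both sides.

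Other blood lineages were measured with the same fit. Of 15 B cell markers 8 fell (median -2.33), among them Ebf1, a factor of B cell commitment (-3.14, SE 0.30, limma adjusted p = 0.0175), which passed the background flag on only 1 old array and was at -1.40 with normexp. With normexp 12 B cell markers fell. Of 11 eosinophil, basophil and mast cell markers 2 fell, or 5 with normexp, and of 14 T and NK cell markers 2 fell and 2 rose, against 4 and 1 with normexp. None of 16 erythroid markers passed with limma, 1 had an unadjusted p under 0.05, and their median was -0.02. Of 12 tested stromal markers 3 fell, Cxcl12, Thy1 and Col1a1, and 1 rose, Lepr. The part of these cells in the oxidase result was not tested either.

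Genes with the pattern most like the oxidase genes were ranked by Pearson correlation over the 6 arrays, among 12149 genes with a symbol that were well above background on all of them. These correlations share the split by age and the high values of young sample 3, so they are a description. The mean profile of the 5 members was closest to Pram1, an adaptor of myeloid cells (r = 0.9998), Ly6c1 (0.9996) and Camkk1 (0.9994), and 549 genes (4.52%) had r above 0.95. Cybb was closest to Pkm (r = 0.9992), the pyruvate kinase of glycolysis, and Cyba to Shisa5 (0.9965). Ncf1 came closest to Tnnt1 (r = 0.9987), Ckap4 (0.9982) and Cebpe, a factor of late granulocyte precursors (0.998). Ncf4 was closest to Skap2 (r = 0.9995) and to the actin-bundling leukocyte protein Lcp1 (0.9994). Rac2 was closest to Sp2 (r = 0.9991) and to Hcls1, a cortactin relative of blood cells (0.9988). Rac2 had 169 genes (1.39%) above 0.95, fewer than Ncf4 with 572 (4.71%) or Cybb with 530 (4.36%).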

How the data were processed

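Total RNA of 6 samples was measured on 6 Agilent 1-colour arrays, with group and replicate number from the sample titles. The scanner files hold spot intensity values as deposited by the authors. Per the file headers they are background-subtracted and detrended by Agilent Feature Extraction 10.7.3.1 on a design annotated on mm9, with no scaling between arrays. Version 10.5.1.1 stands in the submitters' processing notes. The authors also deposited log2 values for 52095 of the 55681 probes. Each column correlated with its own array's log2 intensity at r = 0.9986 to 0.9992, and column medians, young 1 to 3 then old 1 to 3, were 4.91, 4.92, 4.95, 4.94, 4.92 and 4.87. Its scaling between arrays is unknown here, so its values were only an alternative.

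Control spots and spots marked as outliers (87 to 198 per array) were left out, and no other spot was saturated. Repeated spots were averaged, and log2 values were taken relative to each array's 75th percentile (206 to 349 intensity units over probes). Symbols came from a RefSeq table of GRCm38.p6 by accession, for 26413 (47.4%) of the probes and 97.9% of those with an NM accession. Its coordinates were not used. A gene was represented by its brightest probe and tested when at least 3 of 6 arrays had that probe well above background, which left 23266 genes. The old-minus-young difference was fitted by lmFit and eBayes of limma 3.58.1 (R 4.3.3, no covariates), with Benjamini-Hochberg adjustment over all tested genes and a threshold of 0.05. Single differences used exact permutation tests in Python 3.11.15 with scipy 1.17.1 and pandas 2.3.3. A gene not well above background in 1 group has only a bound, set against the dimmest probes well above background. The number of arrays, 3 per group, limits the precision. On simulated data with 200 of 23246 genes changed, the fit recovered 58% of changes of 1 and 87.6% of changes of 2 on the log2 scale. Of the genes called there, 6.06% had not been changed. Each gene was drawn independently, so the simulation lacks deviations that many genes of an array share. Its rates therefore do not give the recovery or the false calls in the real data.

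The members and all gene lists were chosen with earlier results of these data known. Lists overlap, for example Dock2 stands in 2. Genes named are the members, Rac1, Ptprc, genes among the 3 with the smallest p of each list, called transcription factors and the genes most like the members. Other called or listed genes are named as parts of a count, and Spi1 was added. A few planned genes and 1 list are not reported here. Alternatives were normexp background correction with an offset of 50, on the median foreground signal because the planned mean signal was not used here, quantile, cyclic loess and median scaling, the deposited values, other filters and probe rules, array weights, a replicate block and leaving out each sample. Whether the replicate numbers pair the samples is not known, and they may only be names. Deviations of same-numbered samples correlated at -0.03, 0.02 and -0.01, which shows no shared deviation but cannot settle how the samples were numbered.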

Additional observations from a re-analysis of the deposited data

How the results depend on the processing

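No member changed direction under any alternative. Cybb kept its call in 9 and Ncf4 in 10 of 12 alternatives that keep all samples, Cyba, Ncf1 and Rac2 gained one in 1, and among the 6 fits that leave out 1 sample Cybb and Ncf4 each kept theirs in 1. With normexp 5 members and 2911 genes passed (62.0% of them higher in old, against 49.6%; deposited values gave 39.0% and requiring all 6 arrays 59.9%), with Cyba at -0.705, Ncf1 at -1.24 and Rac2 at -0.59. Cyclic loess called 1 member, with Cybb at -1.63 (adjusted p = 0.0513). Testing all 37163 genes without a filter called 0 genes (11662 at an unadjusted limma p under 0.05) and 0 members, with Cybb at -1.57 and Ncf4 at -1.53 (adjusted p = 0.0617 each). The replicate block, on numbers that may only be names, called 0 genes (5554 at an unadjusted limma p under 0.05) and 0 members. In it Cybb was at -1.57 (limma adjusted p = 0.141) and Ncf4 at -1.53 (0.125). Leaving out 1 sample called 1 (without old sample 2) to 1154 genes and 0 to 1 members, with Cybb from -1.83 to -1.29 and Ncf4 from -1.77 to -1.21. Some differences between members or lists changed sign, and not all of them were near 0. In the main setting, Cybb relative to the neutrophil mean was -0.342 and Ncf1 relative to the monocyte and macrophage mean 0.248. The first of these had no overlap in the main setting or with normexp (exact permutation p = 0.1 in each). With normexp, Cybb minus Ncf1 was 0.14, Cybb minus Ncf4 0.487, Cybb relative to the neutrophil mean 0.076, and Cybb, Ncf1 and Ncf4 relative to the monocyte and macrophage mean -0.16, -0.30 and -0.646. The median of the oxidant handling list was -0.036 with normexp, -0.108 with quantile scaling and -0.096 with the deposited values. Over the fits without 1 sample, Cybb minus Ncf4 ran from -0.146 to 0.066, Cyba minus Rac2 from -0.206 to 0.016, Cybb relative to the monocyte and macrophage mean from -0.044 to 0.191, Ncf1 relative to Ptprc from -0.298 to 0.019, the median of other oxidase components from -0.106 to 0.048 and that of the erythroid markers from -0.071 to 0.023. Taking the percentile over spots, chosen after seeing the data, kept both calls. The cause of these shifts was not tested. Dim signal limits the account of Spi1, whose difference normexp shrank to -0.22.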
